A study of Mus musculus with 2 samples.

Results

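The S100 genes encode small calcium-binding proteins of the EF-hand type. One of them, S100b, lends its promoter to the reporter by which the cells of this study were sorted. The levels of 10 S100 genes, taken as a named list (S100b, S100a1, S100a4, S100a6, S100a8, S100a9, S100a10, S100a11, S100a13 and S100a16), were described across the cell classes of the sorted library and set beside the RNA of the reporter itself. They were 10 of the 17 S100 genes among the 32287 features of the count matrix.

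The cells came from the hind limb muscles (tibialis anterior and gastrocnemius) of S100GFPtg mice, which carry green fluorescent protein under the S100B promoter and are labelled WT. They were 2 months of age. The muscles were taken 7 days post injury (7 dpi), the injury being a crush of the sciatic nerve, and living cells were sorted into GFP+ and GFP- fractions before droplet sequencing of 3' tags. The methods state that animals were pooled while the series text describes 1 mouse, so that the number of animals is uncertain. The reporter marks every cell in which this promoter drives enough protein to pass the sort gate, which need not be a Schwann cell. The description rests on the GFP+ library alone, and the counts of GFP- cells were not used here.

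With 1 library there is no replicate. All intervals below are exact 95% intervals that cover counting error only, and no test between conditions could be made. The GFP+ matrix held 170648616 UMIs (unique molecular identifiers, the count of captured molecules) in 36400 barcodes, of which 34441 had more than 200 genes and under 10% mitochondrial counts. Levels are given as CPM, the UMIs of a gene per 1000000 UMIs of all cells of a class. Classes were defined among 8701 barcodes of at least 5000 UMIs, with a median of 11624 UMIs, by at least 3 UMIs over at least 2 of their core marker genes. In all, 7561 of these barcodes fell in 1 class, 1045 (12.0%) passed the gates of several classes and were left out, and 95 passed none. Of the barcodes, 372 (1.02%) also stood in the barcode list of the GFP- library.

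Proteins of the S100 family form dimers, change shape on binding calcium, and then dock onto target proteins, among them annexins, myosin and membrane receptors. S100b is the classical marker of Schwann cells and astrocytes. S100a8 and S100a9 form calprotectin, a major protein of the neutrophil cytosol that is released in inflammation and binds Tlr4 and the receptor Ager. S100a4, also called fibroblast-specific protein, binds non-muscle myosin (Myh9). S100a6 binds Cacybp, S100a10 binds Anxa2, and S100a11 binds Anxa1, while S100a13 takes part in the export of Fgf1. S100a1 is known from striated muscle, where it acts on calcium handling.

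In the GENCODE M39 annotation of GRCm39, S100b lies on the plus strand of chromosome 10 from 76085090 to 76097159. The other 9 genes lie on chromosome 3, between the start of S100a13 at 90416091 and the end of S100a10 at 93474510. S100a1 lies on the minus strand, inside the span of S100a13 on the plus strand. A processed pseudogene, S100a11-ps, is annotated on chromosome 12 from 74007916 to 74008221 and has no feature in the matrix.

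For 4 genes, upstream windows of 250 bases are printed from RefSeq (GRCm38.p6). The comparison of S100b with its own reporter and the contrasts of S100a4, S100a8 and S100a9 between cell groups turn on these genes. Of the 10 genes, 9 had a promoter entry. The letters searched were the TATA box TATAAA on the given strand and, on both strands, the box CCAAT, the core GGGCGG of Sp sites, the form TTNNGNAA of C/EBP sites and the core ACAAAG of SOX sites. Matches are in capitals, overlapping matches were allowed, and each line ends at the base before the annotated start.

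S100b (chr10:76253586-76253835, plus strand): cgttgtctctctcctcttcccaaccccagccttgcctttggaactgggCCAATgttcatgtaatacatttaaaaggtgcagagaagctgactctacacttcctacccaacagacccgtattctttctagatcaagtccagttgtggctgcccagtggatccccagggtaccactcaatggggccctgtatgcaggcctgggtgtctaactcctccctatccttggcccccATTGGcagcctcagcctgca
S100a4 (chr3:90603520-90603769, plus strand): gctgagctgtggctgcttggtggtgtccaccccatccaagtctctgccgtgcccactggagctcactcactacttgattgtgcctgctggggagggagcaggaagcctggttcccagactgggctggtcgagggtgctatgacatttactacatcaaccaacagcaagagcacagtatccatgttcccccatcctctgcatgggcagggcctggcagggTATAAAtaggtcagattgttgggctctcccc
S100a8 (chr3:90668821-90669070, plus strand): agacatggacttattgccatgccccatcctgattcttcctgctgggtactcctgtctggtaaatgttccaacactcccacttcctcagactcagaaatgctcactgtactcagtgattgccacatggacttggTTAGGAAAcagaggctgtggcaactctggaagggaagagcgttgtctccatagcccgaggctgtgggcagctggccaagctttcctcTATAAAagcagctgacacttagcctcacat
S100a9 (chr3:90695722-90695971, minus strand): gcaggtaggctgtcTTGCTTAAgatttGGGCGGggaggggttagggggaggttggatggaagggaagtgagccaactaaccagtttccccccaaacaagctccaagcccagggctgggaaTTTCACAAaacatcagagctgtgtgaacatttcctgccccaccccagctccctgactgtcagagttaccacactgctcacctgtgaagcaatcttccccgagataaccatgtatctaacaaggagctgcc

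TATAAA, held by 7.59% of all 32851 promoter windows in the RefSeq table, began 31 bases before the start of S100a4 and 30 bases before that of S100a8, and was in no other window of the list. TTNNGNAA was in 36.8% of all windows and, within the list, in those of S100a8 (117 bases before the start) and S100a9 (130 and 236 bases before it). CCAAT, found in 33.8% of all windows, occurred in S100b (20 and 202 bases before the start) and S100a6, and GGGCGG, found in 32.7%, in S100a9, S100a11 and S100a16. ACAAAG, at 16.5% of all windows, was in no window of the list. The windows of S100a1 and S100a13, which run in opposite directions, share 104 bases. Which stretch of the S100B promoter the transgene carries is not given in the sources used here.

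In 8 classes, at least 20 deep cells remained. They were 63 Schwann-like, 1025 mesenchymal-like, 437 tenocyte-like, 39 smooth muscle and pericyte-like, 33 endothelial-like, 28 satellite cell and myoblast-like, 5441 mononuclear phagocyte-like and 480 dendritic-like cells. In each of them every core gene of its own list was detected, and its own list summed to between 873 CPM (satellite cell and myoblast-like) and 10719 CPM (tenocyte-like). Tenocyte-like cells also held 1385 CPM of the mesenchymal list, dendritic-like cells 601 CPM of the phagocyte list, and satellite cell and myoblast-like cells 32719.5 CPM of the muscle fibre list. The exclusive gate removed many cells of the small classes, keeping 63 of 113 that passed the Schwann gate, 39 of 216 that passed the smooth muscle and pericyte gate, and 28 of 273 that passed the satellite cell gate. Of the latter 273, 231 also passed the mesenchymal gate. In these 8 classes, Gfp and listed S100 levels over every passing barcode are therefore also given where they differ by more than 1.5 times. For smaller cell groups, barcodes under 5000 UMIs and other genes, only some of these levels are given. Highest and lowest levels are named among these 8 classes.

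The reporter RNA, Gfp, was highest in Schwann-like cells (595 CPM, 532 to 663) and second in mononuclear phagocyte-like cells (473 CPM, 468 to 478). Dendritic-like cells held 336 CPM, tenocyte-like cells 281 CPM, smooth muscle and pericyte-like cells 187 CPM and mesenchymal-like cells 116 CPM. Satellite cell and myoblast-like cells (60.6 CPM) and endothelial-like cells (47.6 CPM) came last and were the only neighbours in this order that did not differ beyond counting error. Over every passing barcode the last 4 classes were closer, with 160.3 CPM in mesenchymal-like, 155 CPM in smooth muscle and pericyte-like, 142 CPM in endothelial-like and 125 CPM in satellite cell and myoblast-like cells. Between Schwann-like and mononuclear phagocyte-like cells the difference in Gfp was 0.33 on the log2 scale (0.17 to 0.49). One Schwann-like cell held 51 of the class's 324 Gfp UMIs, and without the highest cell of each class the log2 ratio was 0.12 (-0.06 to 0.29).

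With exclusive classes, S100b RNA did not follow the reporter. Its highest level was in mesenchymal-like cells, at 15.0 CPM (13.2 to 17.1; 234 UMIs in 173 of 1025 cells), a class in which Gfp ranked sixth of 8. In Schwann-like cells it stood at 5.51 CPM (1.14 to 16.1), which came from 3 UMIs in 3 of 63 cells. Tenocyte-like cells were at 5.48 CPM (3.70 to 7.83), smooth muscle and pericyte-like cells at 4.98 CPM from 2 UMIs, and satellite cell and myoblast-like cells at 3.56 CPM from 1 UMI. Mononuclear phagocyte-like cells, with the second highest Gfp level, held 1.27 CPM of S100b (1.01 to 1.57; 85 UMIs), dendritic-like cells held 0.749 CPM, and no UMI was found in 33 endothelial-like cells, which allows up to 10.2 CPM. No class differed from the next in this order beyond counting error, but over larger steps the levels separated: mesenchymal-like cells were 11.9-fold above mononuclear phagocyte-like cells (log2 ratio of phagocyte to mesenchymal -3.57, -3.95 to -3.21), where Gfp went 4.06-fold the other way. These folds were 7.08 and 2.81 over every passing barcode.

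The place of Schwann-like cells in the S100b order depended on how barcodes with mixed markers were treated. The 34 barcodes that passed both the Schwann and the mesenchymal gate held 20 S100b UMIs, or 38.3 CPM (23.4 to 59.1), against 3 UMIs in the 63 that passed the Schwann gate alone, and their median depth was 13759.5 UMIs against 7639. Over all 113 barcodes of the Schwann gate, S100b stood at 20.3 CPM (13.4 to 29.5; 15 cells with a UMI), and over all 2205 of the mesenchymal gate at 12.2 CPM from 386 UMIs. Set against mesenchymal-like cells, S100b in Schwann-like cells thus had a log2 ratio of -1.45 (-3.74 to 0.12) with exclusive classes and of 0.74 (0.12 to 1.30) with barcodes counted in every class they passed. Whether the barcodes with both sets of markers hold 1 cell or more was not tested. The log2 ratio of Schwann-like to mononuclear phagocyte-like cells was 2.12 (-0.19 to 3.72) with exclusive classes and 3.56 (2.91 to 4.17) over every passing barcode, and the first of these intervals includes 0. Over every passing barcode, smooth muscle and pericyte-like cells also rose in the order, to 14.9 CPM from 49 UMIs. Dendritic-like cells were then at 3.51 CPM, endothelial-like cells at 2.55 CPM and satellite cell and myoblast-like cells at 1.57 CPM.

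**Figure D1:**
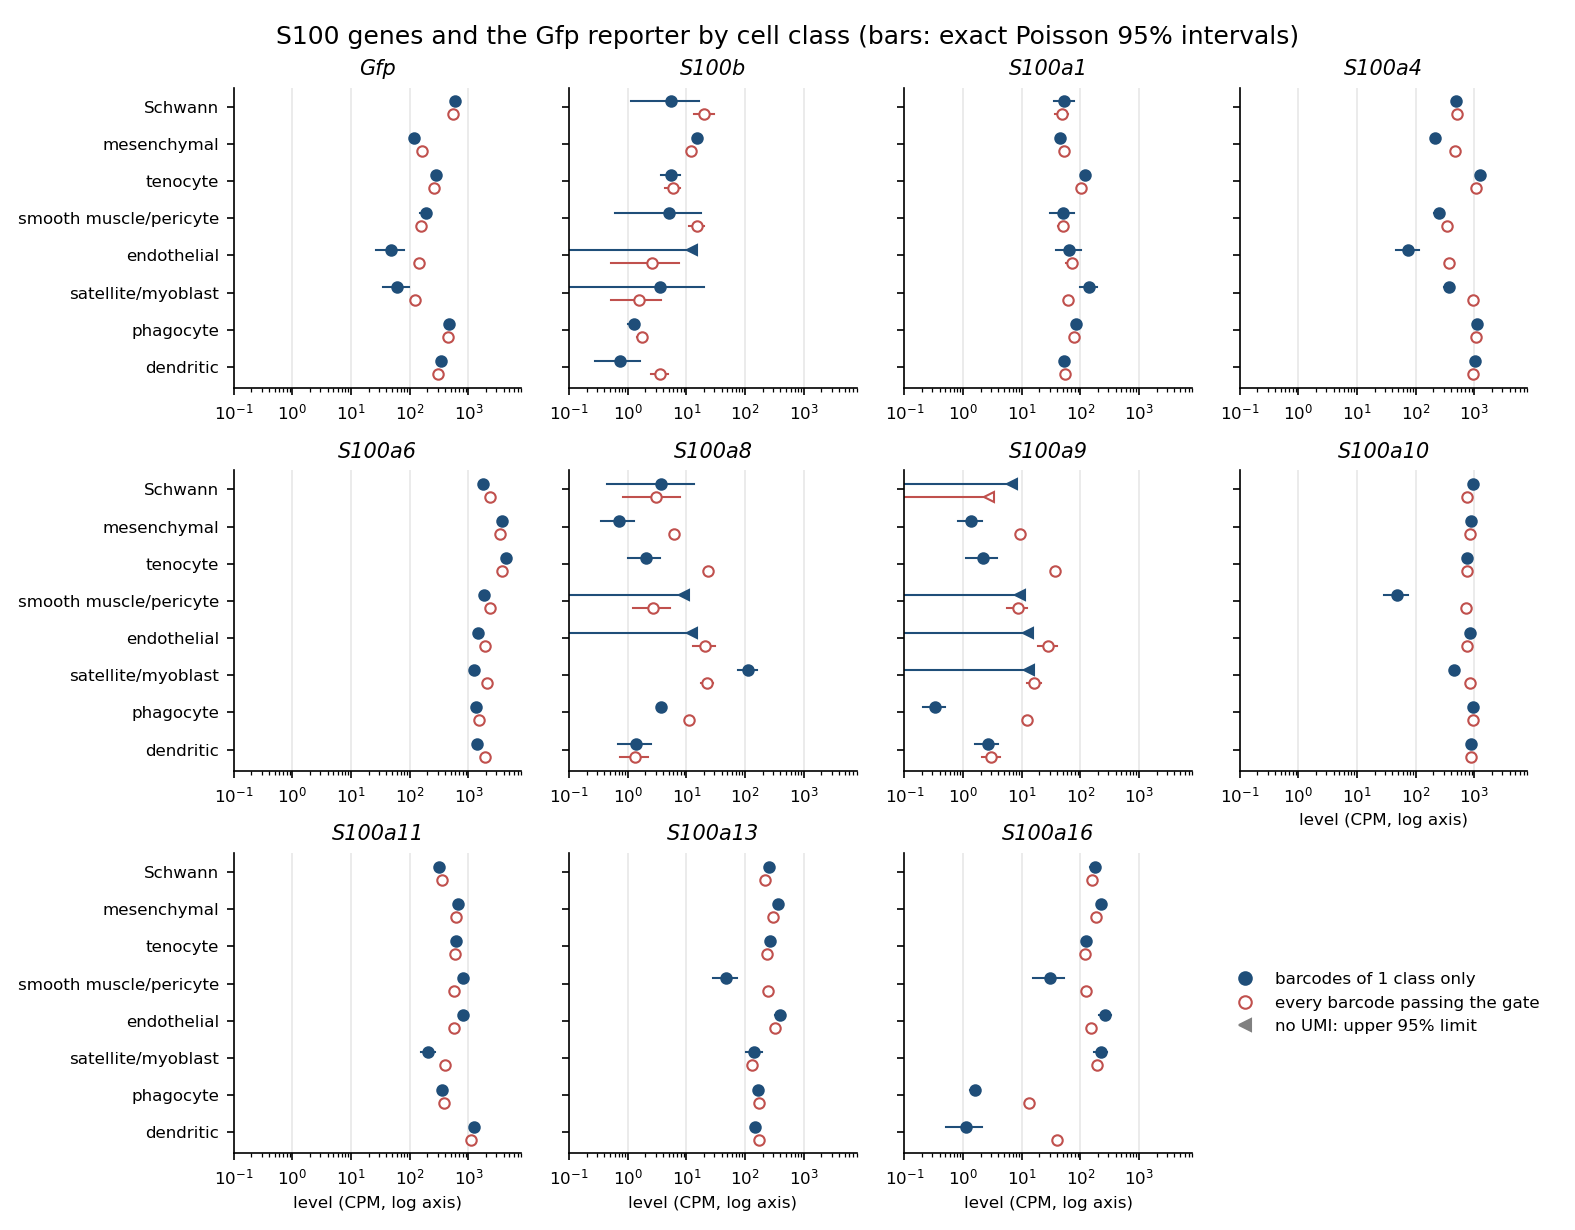
Level in CPM (log axis) of Gfp and 10 S100 genes in 8 cell classes of the GFP+ library; filled points are cells of 1 class only, open points every barcode passing the class's gate, bars exact Poisson 95% intervals, and triangles the upper limit where no UMI was found. S100b sits at 20.3 CPM or less throughout, S100a16 drops from 221 CPM in mesenchymal-like to 1.61 CPM in phagocyte-like cells, and S100a10 is between 738 and 963 CPM in 6 of the 8 classes.

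To compare the shares of cells with an S100b UMI, each cell was thinned to 5000 UMIs. After thinning, 7.22% (5.71 to 8.98%) of mesenchymal-like, 3.20% of tenocyte-like, 1.59% (1 of 63) of Schwann-like, 0.607% (0.418 to 0.851%) of mononuclear phagocyte-like and 0.417% of dendritic-like cells held one. Before thinning these shares were 16.9, 6.18, 4.76, 1.54 and 1.25%, and the median cell held 14872, 11349, 7639, 11214 and 15124 UMIs in the same order. The mesenchymal share lay above those of the phagocytes and dendritic-like cells, whose own shares cannot be told apart from stray RNA. Among mesenchymal-like cells, the 74 with an S100b UMI held 214 CPM of Gfp (169 to 266) and the 951 without held 115 CPM (106 to 125), while the shares of cells with a Gfp UMI, 39.2% (28.0 to 51.2%) and 29.9% (27.0 to 32.9%), overlap in counting error. In mononuclear phagocyte-like cells the order was the other way, with 327 CPM of Gfp (246 to 427) in the 33 cells with S100b and 439 CPM (432 to 447) in the 5408 without, but the shares of cells with a Gfp UMI were 69.7% (51.3 to 84.4%) and 63.9%, which overlap in counting error.

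Smaller groups within the classes were gated by at least 5 UMIs over 2 genes of a pair-named list. In the phagocytes, Gfp was 1068 CPM in the 316 Ly6c2 Chil3 cells (genes of infiltrating monocytes), 794.5 CPM in the 669 Gpnmb Fabp5 cells (genes of lipid-associated macrophages) and 243 CPM in the 2351 Lyve1 Folr2 cells (genes of resident macrophages). S100b was highest where Gfp was lowest. It had 0 UMIs of 3394728 in Ly6c2 Chil3 cells (up to 0.884 CPM by the limit that a count of 0 allows), 5 UMIs or 0.493 CPM in Gpnmb Fabp5 cells, and 49 UMIs or 1.78 CPM (1.31 to 2.35) in Lyve1 Folr2 cells, and the first 2 of these groups cannot be told apart at this depth. The core genes of the mesenchymal list were highest in Lyve1 Folr2 cells too, at 5.89, 9.97 and 32.8 CPM in the same order of groups, and their part in the S100b level was not tested. Among mesenchymal cells, S100b stood at 12.2 CPM in Pi16 Dpp4 (adventitial) cells, 12.8 CPM in Smoc2 Hsd11b1 cells and 29.7 CPM (13.6 to 56.4) in 33 Gdf10 Inmt cells, with Gfp at 126, 98.6 and 287 CPM. Intervals of S100b overlapped among these 3 groups.

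Across the 8 classes, the Spearman correlation of S100b with Gfp was 0.24 and Pearson's r on log2(CPM + 1) was 0.14. All 8 points share 1 library and the small classes have few S100b UMIs, so the values are descriptions. The Spearman coefficient was -0.90 over the 5 classes left among barcodes of at least 10000 UMIs and -0.30 over the 5 classes of at least 50 cells. Of 12 alternatives only 3 had the other sign, and the highest value was 0.48. By Pearson's r, the 5 genes most like Gfp of 12659 compared were Kif1a (0.97), Slc35f6, Emp3, Gmpr2 and Rnf227 (0.94), and those most like S100b were Dpt (0.98), a gene of the mesenchymal gate itself, Alkal2, Pxylp1, Has2os and G930009F23Rik (0.95). S100b took place 5632 in the order of likeness to Gfp.

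**Figure D2:**
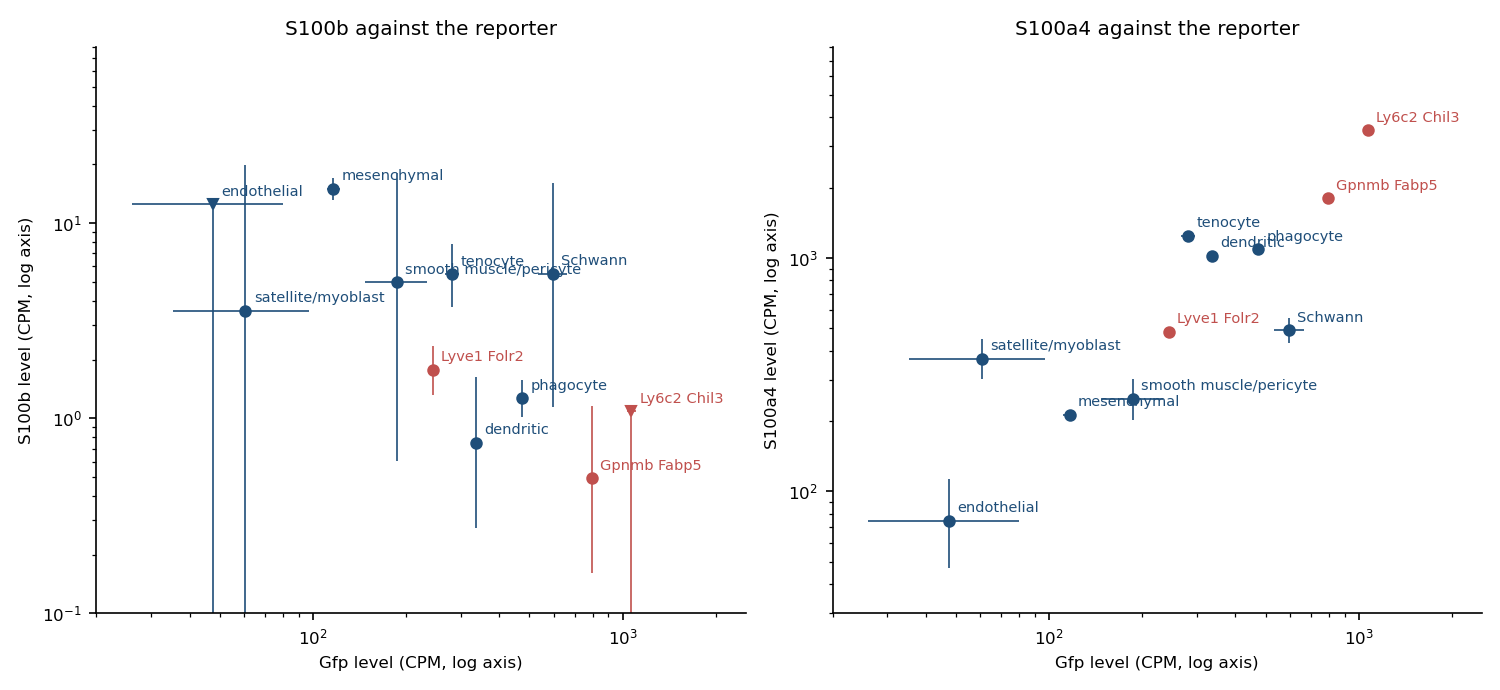
Level of S100b (left) and S100a4 (right) against Gfp, both in CPM on log axes, in 8 classes (blue) and 3 phagocyte groups (red); bars are exact 95% intervals and triangles upper limits where no UMI was found. S100a4 runs from 74.8 CPM in endothelial-like to 3532 CPM in Ly6c2 Chil3 cells, the points with least and most Gfp, but Schwann-like cells, first of the 8 classes for Gfp, lie at 488 CPM, and the 2 phagocyte groups with most Gfp hold 0 and 5 UMIs of S100b.

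Of the 10 genes, S100a4 was the most like Gfp, with a Spearman coefficient of 0.71 and Pearson's r of 0.76 over 8 classes, place 236 of 12659 in the order of likeness; the former was 0.10 over the 5 classes of at least 50 cells. Tenocyte-like cells held most S100a4, at 1243 CPM (1214 to 1273), followed by mononuclear phagocyte-like cells at 1089.8 CPM (1082 to 1098) and dendritic-like cells at 1022 CPM. Schwann-like cells held 488 CPM (432 to 551), satellite cell and myoblast-like cells 371 CPM (929 CPM over every passing barcode), smooth muscle and pericyte-like cells 249 CPM, mesenchymal-like cells 213 CPM and endothelial-like cells 74.8 CPM (46.9 to 113). Every step of this order but one was beyond counting error. Over every passing barcode mononuclear phagocyte-like (1062 CPM) and tenocyte-like cells (1053 CPM) were level, and endothelial-like cells held 374 CPM. Schwann-like cells, first for Gfp, thus stood behind 3 classes for S100a4. Over every barcode passing the mesenchymal gate, S100a4 was 460 CPM (452 to 467), well above the exclusive level, and the log2 ratio of phagocyte to mesenchymal cells was 1.21 in place of 2.36.

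Within the phagocytes S100a4 took the same order as Gfp: 3532 CPM (3469 to 3595) in Ly6c2 Chil3, 1798 CPM (1772 to 1824) in Gpnmb Fabp5 and 483 CPM (474 to 491) in Lyve1 Folr2 cells. S100a6 did so too, at 3731, 2253 and 669 CPM, as did S100a11 at 1046, 588 and 152 CPM and S100a10 at 1526, 1232 and 800.3 CPM. S100a1 went the other way, at 41.8 CPM (35.2 to 49.3), 63.7 CPM and 97.9 CPM (94.2 to 102), and S100a13 was nearly level at 189, 168 and 172 CPM. From Lyve1 Folr2 to Ly6c2 Chil3 cells, the log2 ratios were 2.87 (2.84 to 2.91) for S100a4, 2.78 (2.72 to 2.85) for S100a11, 2.48 (2.45 to 2.51) for S100a6, 0.93 (0.89 to 0.97) for S100a10, 0.13 (0.01 to 0.25) for S100a13 and -1.23 (-1.48 to -0.98) for S100a1, with Gfp at 2.13 (2.08 to 2.19). Of 8229 genes with at least 10 CPM in 1 of both groups, 9.03% were 2-fold or more higher and 20.8% as much lower in Ly6c2 Chil3 cells. Of the S100 list, 6 genes reached that level, of which 3 were higher (S100a4, S100a6 and S100a11) and 1 was lower (S100a1), and their median log2 ratio was 1.71 against -0.15 for all genes compared. With barcodes counted in every class they passed, 8 list genes reached it, with S100a16 also higher and S100a9, from 1 UMI in Ly6c2 Chil3 cells, also lower, against 9.37% and 17.6% of 8504 genes. S100b, S100a8, S100a9 and S100a16 were below 10 CPM in both groups.

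**Figure D3:**
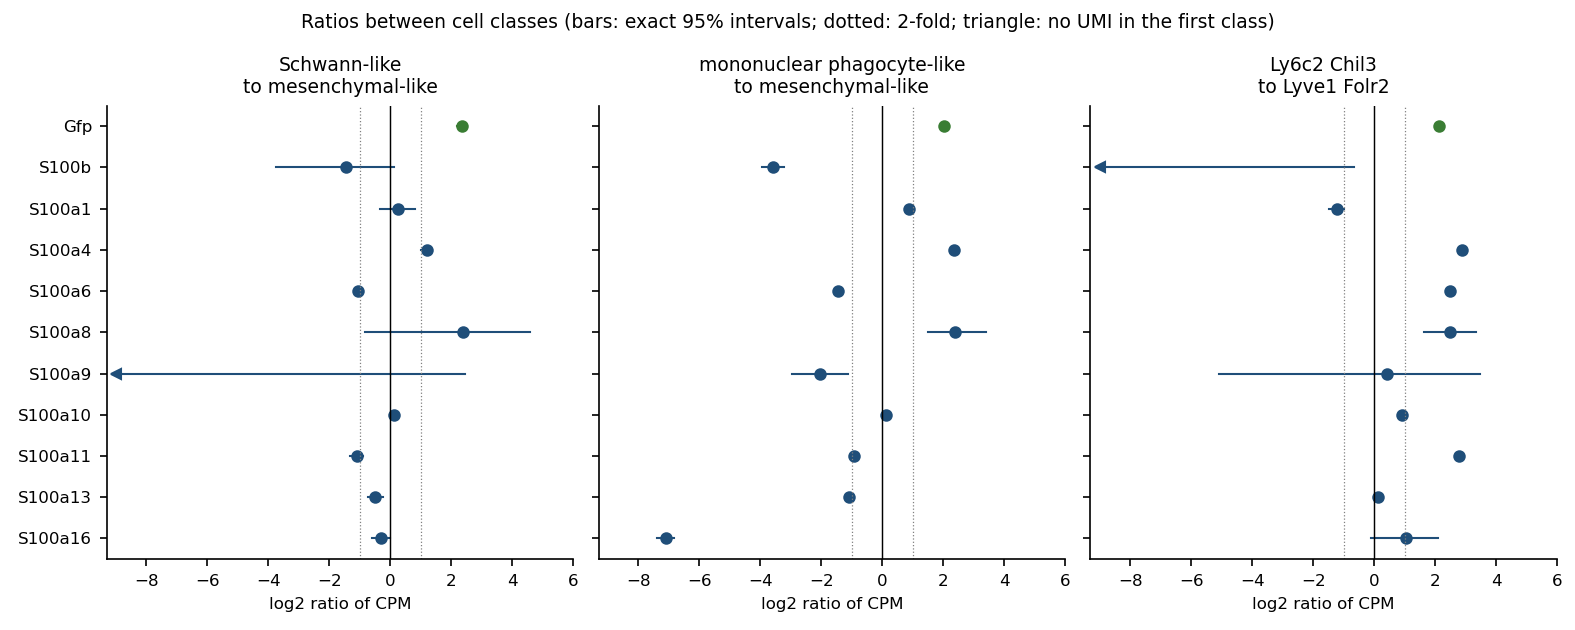
Log2 ratio of CPM between 3 pairs of cell groups for Gfp (green) and 10 S100 genes; bars are exact 95% intervals, dotted lines mark 2-fold, and a triangle at the left edge stands for no UMI in the first group. Gfp is to the right in all 3 panels, at 2.35, 2.02 and 2.13, and S100a4 is past 2-fold with it in each, at 1.20, 2.36 and 2.87, but the first of these falls to 0.16 with barcodes counted in every class they passed. S100a8, with few UMIs, is to the right too, but its interval includes 0 in the first panel and its sign turns in the third under that count. S100b is to the left in all 3, with an interval that includes 0 in the first. Under that count S100b turns to the right in the first panel, at 0.74 (0.12 to 1.30).

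Cells of each phagocyte group were then divided by their Gfp UMIs after thinning to 5000 UMIs. In Ly6c2 Chil3 cells S100a4 was 2898 CPM (2669 to 3140) in the 41 cells without Gfp and 4098 CPM (3938 to 4262) in the 121 cells with 6 or more Gfp UMIs. In Gpnmb Fabp5 cells the levels were 1202 CPM (1117 to 1291) and 2508 CPM (2405 to 2613), and in Lyve1 Folr2 cells 425 CPM (408 to 442) and 688 CPM (605 to 778). Ly6c2 Chil3 cells without Gfp still held several times the S100a4 of Lyve1 Folr2 cells with 6 or more Gfp UMIs. Not every difference between groups was larger than those within them. With 6 or more Gfp UMIs, Ly6c2 Chil3 and Gpnmb Fabp5 cells held 4098 and 2508 CPM, while Gpnmb Fabp5 cells without Gfp held 1202 CPM. S100a10 rose alongside from 976 to 1818 CPM in Ly6c2 Chil3 cells and from 867 to 1512 CPM in Gpnmb Fabp5 cells, but in Lyve1 Folr2 cells its values were 782 CPM (759 to 806) and 888 CPM (794 to 990). S100a1 and S100a13 showed overlapping intervals between the ends of this scale in all 3 groups. Cells of 1 library are not replicates, and other states that vary within each group were not held constant.

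**Figure D4:**
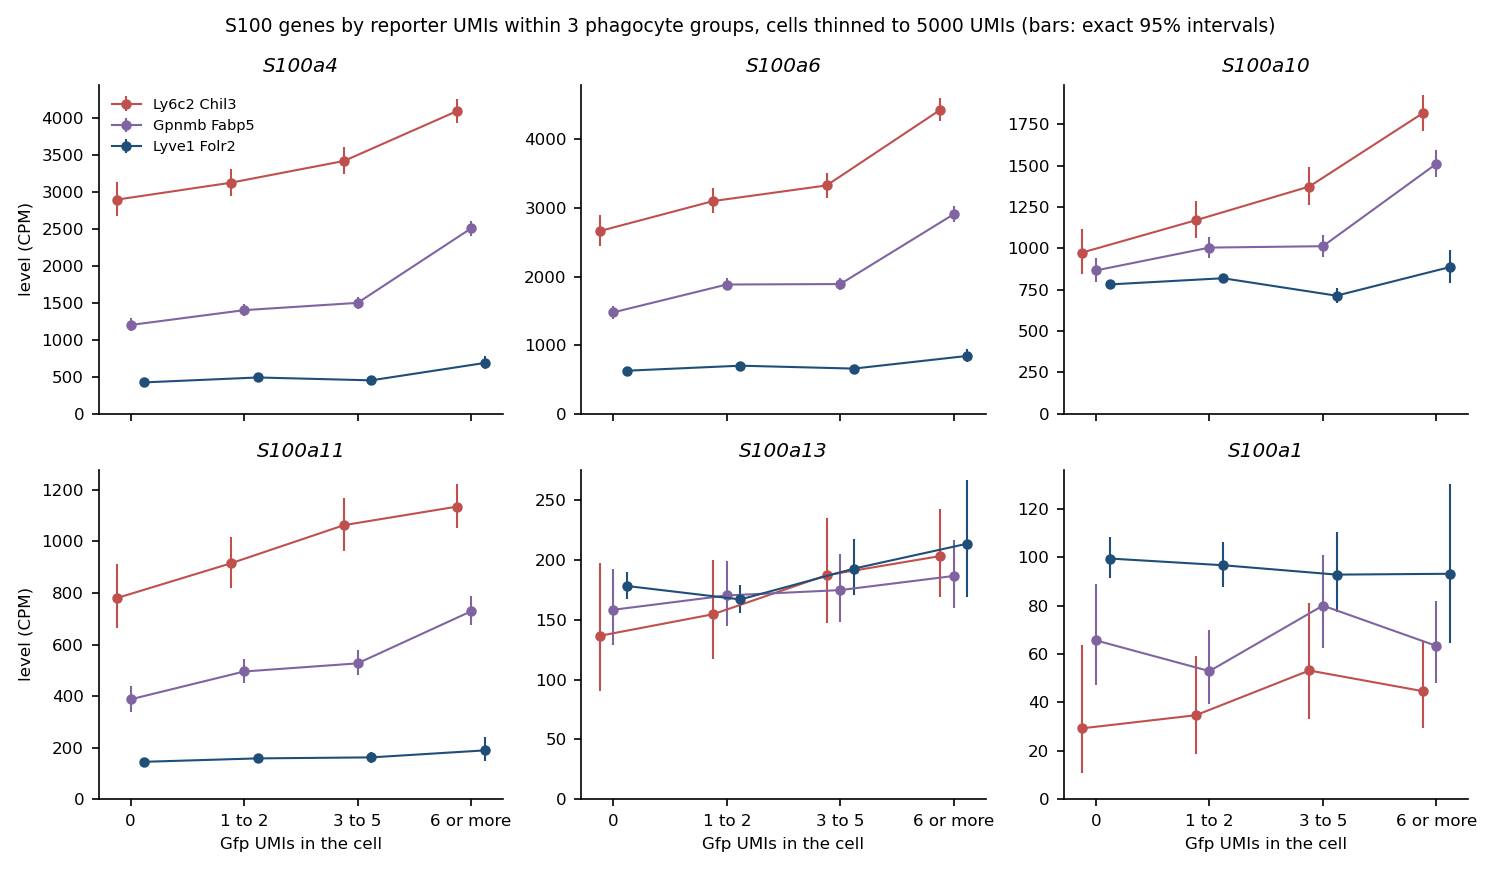
Level in CPM of 6 S100 genes in cells thinned to 5000 UMIs, by the cell's Gfp UMIs, in Ly6c2 Chil3 (red), Gpnmb Fabp5 (purple) and Lyve1 Folr2 (blue) phagocytes; bars are exact 95% intervals. S100a4 runs from 2898 to 4098, from 1202 to 2508 and from 425 to 688 CPM in these groups, so the lines stay apart, while S100a13 lies between 137 and 214 CPM in all of them.

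Among the 8 classes S100a6 was highest in stromal cells. Tenocyte-like cells held 4395 CPM (4340 to 4451) and mesenchymal-like cells 3700.0 CPM (3670 to 3730), while it lay between 1218 CPM (satellite cell and myoblast-like) and 1805 CPM (smooth muscle and pericyte-like) in the other 6 classes. Satellite cell and myoblast-like cells held 2096 CPM over every passing barcode. After thinning, 99.0% of mesenchymal-like cells held a UMI, with a median of 16. Mesenchymal-like cells were 2.72-fold above mononuclear phagocyte-like cells, but the phagocytes were mixed, since Ly6c2 Chil3 cells at 3731 CPM (3666 to 3796) equalled mesenchymal-like cells and Lyve1 Folr2 cells at 669 CPM lay far below. Among mesenchymal groups it was 3389 CPM in Pi16 Dpp4 and 4167 CPM in Smoc2 Hsd11b1 cells.

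S100a10 was at a like level in 5 of the 8 classes. It was 963 CPM (956 to 971) in mononuclear phagocyte-like, 962 CPM (882 to 1048) in Schwann-like, 886 CPM in mesenchymal-like, 871 CPM in dendritic-like and 837 CPM in endothelial-like cells. No step between neighbours was beyond counting error, but phagocyte-like and mesenchymal-like cells differed slightly (log2 ratio 0.12, 0.10 to 0.15). Tenocyte-like cells held 738 CPM and satellite cell and myoblast-like cells 452 CPM (836 CPM over every passing barcode). Smooth muscle and pericyte-like cells stood apart at 47.3 CPM (28.5 to 73.9), from 19 UMIs in 39 cells. Over all 216 barcodes passing that gate, of which 140 also passed the mesenchymal gate, the level was 713 CPM, so the low value holds for the exclusive cells alone. Its partner Anxa2 was also lowest in these 39 cells, at 152 CPM, and highest in Schwann-like cells, at 949 CPM.

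Among the 8 classes S100a11 was led by dendritic-like cells at 1258 CPM (1233 to 1283), below the 4179 CPM of the shallow neutrophil-like barcodes described further on, and followed by smooth muscle and pericyte-like (814 CPM), endothelial-like (806 CPM) and mesenchymal-like cells (666 CPM). Tenocyte-like cells stood at 604 CPM and satellite cell and myoblast-like cells lowest at 207 CPM (394 CPM over every passing barcode). Mononuclear phagocyte-like cells at 348 CPM and Schwann-like cells at 309 CPM (264 to 359) did not differ beyond counting error. How reads that fit both S100a11 and its pseudogene were counted was not tested. Its partner Anxa1 took another order, with 645 CPM in mesenchymal-like and 95.2 CPM in endothelial-like cells.

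S100a16 was higher in stromal than in myeloid cells. Endothelial-like cells held 262 CPM (207 to 327), satellite cell and myoblast-like and mesenchymal-like cells both 221 CPM, Schwann-like cells 178 CPM (144 to 217), tenocyte-like cells 125 CPM and smooth muscle and pericyte-like cells 29.9 CPM (15.4 to 52.2). In mononuclear phagocyte-like cells it was 1.61 CPM (1.32 to 1.94) and in dendritic-like cells 1.12 CPM (0.514 to 2.13), and the phagocytes lay 137-fold below mesenchymal-like cells. These gaps were far smaller over every passing barcode, with 13.1 CPM in the phagocytes and 39.8 CPM in dendritic-like cells against 183 CPM in mesenchymal-like, 154 CPM in endothelial-like and 122 CPM in smooth muscle and pericyte-like cells. Its Spearman coefficient with Gfp was -0.71. All 3 phagocyte groups were between 1.28 and 2.95 CPM with exclusive classes. Over every passing barcode, Ly6c2 Chil3 cells held 18.0 CPM and Lyve1 Folr2 cells 7.12 CPM.

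S100a13 showed a weaker form of this pattern. Endothelial-like cells held 395 CPM (326 to 473), mesenchymal-like cells 360 CPM (351 to 370), tenocyte-like cells 262 CPM and Schwann-like cells 255 CPM, against 169 CPM (166 to 172) in mononuclear phagocytes and 146 CPM in dendritic-like cells. Satellite cell and myoblast-like cells were at 143 CPM. Exclusive smooth muscle and pericyte-like cells again stood lowest at 47.3 CPM, and at 245 CPM over every passing barcode. Its cargo Fgf1 had 196 UMIs (12.6 CPM) in mesenchymal-like cells, 115 CPM in smooth muscle and pericyte-like cells and 25 UMIs (0.373 CPM) in mononuclear phagocyte-like cells.

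S100a1 was highest in satellite cell and myoblast-like cells (139 CPM, 98.8 to 190; 39 UMIs in 28 cells) and tenocyte-like cells (121 CPM, 112 to 131), which did not differ beyond counting error. Mononuclear phagocyte-like cells were at 82.5 CPM, and the other 5 classes between 44.5 CPM (mesenchymal-like) and 64.6 CPM. Over all 273 barcodes passing the satellite cell gate it was 60.4 CPM (52.2 to 69.6). The 28 exclusive cells are those that carry the muscle fibre genes named above, and what part that RNA has in their S100a1 level was not tested. In tenocyte-like cells S100a1 was 81.0 CPM in the 200 thinned cells without Gfp and 194 CPM in the 32 with 6 or more Gfp UMIs, and S100a4 was 760 and 2381 CPM.

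S100a8 and S100a9 were by far highest in neutrophil-like cells. Only 3 deep barcodes were kept in that class, so 33 neutrophil-like barcodes with at least 1000 and under 5000 UMIs (called shallow here) were compared with mononuclear phagocyte-like barcodes of the same depth. The neutrophils held 26010 CPM of S100a8 and 40915 CPM of S100a9, and the phagocytes 21.1 and 33.3 CPM. In the 8 deep classes both genes were at 3.67 CPM or less, other than 110.4 CPM of S100a8 in satellite cell and myoblast-like cells, which held 22.3 CPM over all 273 barcodes passing their gate. Over every passing barcode S100a8 stood at 23.0 CPM in tenocyte-like, 20.4 CPM in endothelial-like, 10.9 CPM in phagocyte-like, 6.20 CPM in mesenchymal-like and 2.74 CPM in smooth muscle and pericyte-like cells. S100a9 was then at 37.2 CPM in tenocyte-like, 28.0 CPM in endothelial-like, 16.4 CPM in satellite cell and myoblast-like, 12.5 CPM in phagocyte-like, 9.29 CPM in mesenchymal-like and 8.52 CPM in smooth muscle and pericyte-like cells. Single barcodes carried much of these sums. Of the S100a9 UMIs, 1 barcode held 217 of 323 in the tenocyte gate, 51 of 52 in the satellite cell gate, 27 of 28 in the smooth muscle and pericyte gate and 542 of 990 in the phagocyte gate, and of the S100a8 UMIs 1 barcode held 146 of 200 in the tenocyte gate and 21 of 24 in the endothelial gate. Without the barcode that held most of the gene, S100a9 fell to 12.2 CPM in tenocyte-like, 5.66 CPM in phagocyte-like and 0.316 CPM in satellite cell and myoblast-like cells, and S100a8 to 6.22 CPM in tenocyte-like and 2.57 CPM in endothelial-like cells. Of the barcodes, 2 in the tenocyte gate and 5 in the phagocyte gate also passed the neutrophil gate. Without them, S100a9 was 1.50 CPM in tenocyte-like and 1.35 CPM in phagocyte-like cells, and S100a8 was 2.77 and 3.75 CPM. No barcode of the satellite cell gate passed the neutrophil gate, and endothelial-like cells held 9.42 CPM of S100a9 without the 1 that did. Both genes were low in each of the 8 classes beside the neutrophils under either count. The log2 ratios of shallow neutrophil-like to phagocyte-like barcodes were 10.27 (10.09 to 10.45) and 10.26 (10.12 to 10.41). S100a11 was 10.1-fold and S100a6 2.95-fold higher in the neutrophils, while S100a4 was 3.41-fold and S100a10 6.26-fold lower, and Gfp was 6.59-fold lower (4 UMIs, 54.1 CPM). Of 9540 genes compared, 34.4% were 2-fold or more higher and 16.9% lower in the neutrophils. Of the list, 9 genes passed the minimum of 10 CPM, of which 4 were higher (S100a6, S100a8, S100a9 and S100a11) and 3 lower (S100a1, from 1 UMI, S100a4 and S100a10). Over every passing shallow barcode the same 4 were higher (15.0% of all genes) and S100a10 alone was lower (2.19-fold, 19.3%). S100a4 was then 1.20-fold higher and Gfp 1.34-fold lower, both within counting error. The log2 ratios of S100a8 and S100a9 were 8.98 (8.86 to 9.10) and 8.92 (8.83 to 9.02) under this count, with 35.5 and 58.9 CPM in the phagocytes.

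The ratio of both genes separated phagocytes by depth. In neutrophil-like barcodes S100a8 made up 38.9% (37.5 to 40.2%) of 4948 UMIs of both genes in shallow barcodes, and 37.3% (35.9 to 38.6%) of 4972 in the 3 deep barcodes. Among shallow barcodes the share was 38.8% (35.3 to 42.3%) in mononuclear phagocyte-like, 38.7% in mesenchymal-like and 37.9% in tenocyte-like cells, all within counting error of the neutrophils. In the 5441 deep mononuclear phagocyte-like cells it was 91.8% (87.8 to 94.8%), from 246 S100a8 and 22 S100a9 UMIs, and 154 of the 159 cells with an S100a8 UMI held no S100a9. The share was 96.7% (91.8 to 99.1%; 118 against 4 UMIs) in deep Gpnmb Fabp5 cells, 95.5% in Ly6c2 Chil3 and 83.3% in Lyve1 Folr2 cells. Shallow Gpnmb Fabp5 barcodes had 41.0% (31.5 to 51.0%), and the 1140 deep barcodes of several classes or none had 39.1%. Of the 1800 UMIs behind the latter share, 1647 came from 8 barcodes that passed the neutrophil gate among others (37.8%), and the other 1132 barcodes had 52.9% (44.7 to 61.1%) of 153 UMIs. Deep mesenchymal-like and dendritic-like cells both had 34.4% of 32 UMIs. In satellite cell and myoblast-like cells all 31 UMIs, held by 6 of 28 cells, were S100a8 (88.8 to 100%). S100a8 stood at 11.6 CPM (9.64 to 13.9) in deep Gpnmb Fabp5 cells and 1.09 CPM in Lyve1 Folr2 cells, so these are low levels. They were held by 10.3% and 1.23% of the cells before thinning and by 3.74% and 0.468% after it. Over every passing barcode, Lyve1 Folr2 cells held 9.97 CPM of S100a8 (304 UMIs) and 18.0 CPM of S100a9 (549 UMIs). In the whole phagocyte gate, 1 barcode held 272 of 860 S100a8 UMIs. The neutrophil core genes summed to 7.80 CPM in Gpnmb Fabp5 and 1.20 CPM in Lyve1 Folr2 cells. In Ly6c2 Chil3 cells, with 6.19 CPM of S100a8, they summed to 27.4 CPM, all from 1 of the 5 genes. Their part in the S100a8 level was not tested.

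**Figure D5:**
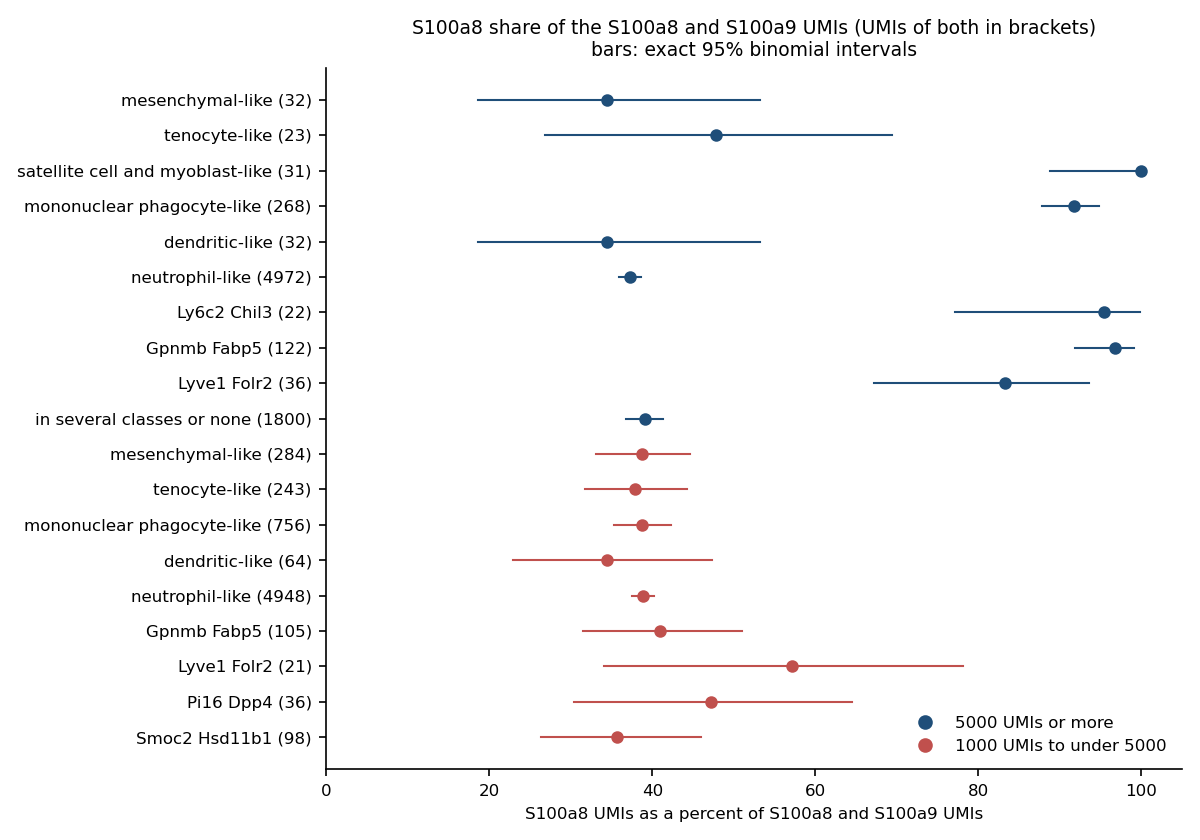
S100a8 UMIs as a percent of S100a8 and S100a9 UMIs for each class and group with at least 20 such UMIs (number in brackets), in barcodes of 5000 UMIs or more (blue) and of at least 1000 and under 5000 UMIs (red); bars are exact 95% binomial intervals. The shallow classes lie between 34.4 and 57.1%, with intervals that include the 38.9% of the neutrophils, while deep phagocyte groups lie between 83.3 and 96.7%.

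The other contrasts can be read against the whole transcriptome in the same way, but the calls depended on whether barcodes with mixed markers were left out. Schwann-like against mesenchymal-like cells, 27.4% of 9988 genes were 2-fold or more higher and 18.4% lower, and of the 8 list genes that passed the minimum 1 was higher (S100a4, 2.30-fold) and 3 were lower (S100b, S100a6 and S100a11), S100b within counting error. With barcodes counted in each gate they passed, none of these 8 was past 2-fold, against 15.6% of 9967 genes higher and 10.4% lower. S100a4 was then at a log2 ratio of 0.16 (0.05 to 0.27), S100a6 at -0.53 and S100a11 at -0.81, and S100b turned to 0.74.

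Between Schwann-like and mononuclear phagocyte-like cells, 35.1% of genes were higher and 19.1% lower, with S100a16 (log2 ratio 6.79, 6.38 to 7.20) higher and S100a4 (-1.16, -1.34 to -0.98) lower of 7 that passed. The S100a16 ratio was 3.58 (3.36 to 3.80) over every passing barcode and that of S100a4 was -1.04. S100b was then also higher, and S100a8 and S100a9 were also lower, of 10 that passed (29.1% of all genes higher and 13.8% lower). Without the phagocyte barcodes that also passed the neutrophil gate, S100a8 and S100a9 held 3.75 and 1.35 CPM in the phagocytes. From mesenchymal-like to mononuclear phagocyte-like cells, 19.0% were higher and 23.9% lower in the phagocytes, with S100a4 higher and S100b, S100a6, S100a13 and S100a16 lower of 8. S100a13 no longer passed 2-fold (log2 ratio -0.78) over every passing barcode and the other 4 did, with S100a16 at -3.80, against 15.9% and 21.5% of all genes.

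Tenocyte-like cells were higher than mesenchymal-like cells in 7.34% and lower in 9.06% of genes, with S100a1 (2.72-fold) and S100a4 (5.84-fold) higher and S100b (2.74-fold) lower of 8. When every passing barcode was counted, S100a1 was 1.95-fold higher and so not past 2-fold, while S100a4 was 2.29-fold higher and S100b 2.07-fold lower. S100a8 and S100a9 were higher as well (4.10% of all genes higher and 4.93% lower), mostly from 2 barcodes that also passed the neutrophil gate. In Schwann-like cells 10 CPM is only a few UMIs, and part of the 2-fold differences over all genes is counting error.

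A list of 12 known partners and receptors of S100 proteins was followed in the same contrasts. From Lyve1 Folr2 to Ly6c2 Chil3 cells 3 of 9 that passed the minimum were higher, against 9.03% of all genes, namely Anxa2 (log2 ratio 2.11), Myh9 (1.04) and Ezr (1.40), and Tlr4 was lower (-1.27), against 20.8% of all genes. Between mononuclear phagocyte-like and mesenchymal-like cells 2 of 11 were higher (Myh9 and Ezr, 19.0% of all genes) and 3 lower (Anxa1, Plat and Fgf1, 23.9%). Plat was 121-fold lower, and 14.7-fold lower over every passing barcode. Schwann-like cells exceeded mesenchymal-like cells by 2-fold or more only in Ezr (log2 ratio 3.46, 27.4% of all genes). In these cells 4 of 11 partners were lower (Anxa1, Tlr4, Capn1 from 1 UMI and Fgf1 from 0 UMIs, 18.4%). Over every passing barcode Ezr was at 2.31, and Fgf1, with 22 UMIs in Schwann-like barcodes, turned to 0.58 (-0.11 to 1.20). Of 10 that passed, 5 were higher (Anxa1, Myh9, Tlr4, Ezr and Capn1; 34.4% of all genes) and 3 lower (Ahnak, and Cacybp and Bsg from 1 UMI each; 16.9%) in neutrophil-like against phagocyte-like barcodes, and Capn1 was within counting error there. Between Schwann-like and mononuclear phagocyte-like cells 3 of 10 were higher (Anxa2, Plat and Ezr; 35.1% of all genes) and 2 lower (Myh9 and Capn1; 19.1%). Between tenocyte-like and mesenchymal-like cells 1 of 11 was higher (Ezr; 7.34% of all genes) and 3 lower (Anxa1, Plat and Tlr4; 9.06%). Over every passing barcode fewer partners were past 2-fold in either direction, but so were fewer of all genes in most contrasts. The number fell from 5 to 2 between Schwann-like and mesenchymal-like cells (Ezr higher, 15.6% of all genes, and Capn1 lower, 10.4%). It fell from 5 to 3 between phagocyte-like and mesenchymal-like cells (Ezr higher, 15.9%, and Plat and Fgf1 lower, 21.5%). Between tenocyte-like and mesenchymal-like cells it fell from 4 to 2 (none higher, 4.10%, and Plat and Tlr4 lower, 4.93%). Between the phagocyte groups, where Myh9 no longer passed, it fell from 4 to 3 (9.37% of all genes higher and 17.6% lower). Between Schwann-like and phagocyte-like cells the number was 3 in place of 5 (Anxa2, Plat and Fgf1 higher, 29.1% of all genes, and none lower, 13.8%). Between the neutrophils and the phagocytes it was 7 in place of 8, with Plat lower and Tlr4 and Bsg no longer past 2-fold (15.0% of all genes higher and 19.3% lower). Of these 7, Plat (from 1 UMI), Cacybp and Capn1 were within counting error. Ager, the receptor of S100b and of S100a8 with S100a9, had 83 UMIs in the whole library.

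The other 7 S100 genes of the matrix were hardly detected. S100a5 had 88 UMIs in the library, of which 49 fell in tenocyte-like cells (8.96 CPM, 6.63 to 11.8), against 8 UMIs (0.119 CPM) in mononuclear phagocyte-like cells. S100a14 had 46 UMIs, S100a2 38, S100a3 37, S100a7a 35 and S100g 14, and S100z had 0.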

How the data were processed

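One GFP+ library at 7 dpi was analysed. The authors deposited its matrix of raw UMI counts per gene and barcode; the matrix header names Cell Ranger 8.0.1, the submitters' processing notes name Cell Ranger 7.1.0, Seurat 4.30 and mm10, and the study's methods name both GRCm38 and GRCm39 with a GFP sequence added. The deposited counts had passed Cell Ranger's cell calling but not the study's DecontX and DoubletFinder steps. Positions are GRCm39 (GENCODE M39), so they may not be those of the counting. A second GFP feature held 2 UMIs and Gfp 58126; reads that fit both alike would have gone uncounted. There were 0 columns of other series.

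Barcodes with more than 200 genes, under 10% mitochondrial counts and at least 5000 UMIs were kept, and classes were gated by at least 3 UMIs over 2 core genes. Barcodes of several classes were left out, except tenocyte-like within mesenchymal-like and dendritic-like within phagocyte-like cells. No doublet caller was used beyond that, and doublets within a class can remain. CPM is summed UMIs per 1000000. Intervals are exact Poisson, conditional binomial (ratios) or Clopper-Pearson (shares) at 95%. A count of 0 was read as at most 3. Contrasts took genes of at least 10 CPM in 1 class and called 2-fold ratios. Likeness is Pearson's r of log2(CPM + 1) over 8 classes. Ratio calls and intervals were tested on simulated data. Intervals were computed with scipy 1.17.1 and Scrublet scores with scanpy 1.11.5, under Python 3.11.15.

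The members, marker lists, gates and the named genes (every member, Gfp, family genes with at least 20 UMIs, and partners) were chosen with earlier results of these data known. S100a2 was added to the family list after the matrix was seen, and S100g and S100z fall below its minimum and are named for completeness.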

Additional observations from a re-analysis of the deposited data

How the results depend on the processing

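No paired analysis was possible because each group has 1 library and no test was run. Of 435 recomputed values, 302 stayed within the main interval or tolerance and 133 did not. In all, 35 had the other sign, 6 of them from a value whose interval excluded 0. The log2 ratio of S100b between Schwann-like and mononuclear phagocyte-like cells was 4.30 when barcodes of several classes were given to the class with most core UMIs, a choice added after the data were seen. The same ratio of Gfp moved to 0.55 under that choice and to 0.12 without the highest cell of each class. The S100a8 ratio of neutrophil-like to phagocyte-like cells was 8.98 with barcodes counted in every class and 9.81 with the class of most core UMIs; it could not be computed at 3000 or 10000 UMIs or after Scrublet, which was run on deep barcodes. The Spearman coefficient of S100b with Gfp was -0.90 at 10000 UMIs, -0.0952 at 3000 UMIs and -0.30 over classes of at least 50 cells. These were the only 3 of 12 alternatives with the other sign, and the highest value was 0.48. The 6 values that turned from an interval excluding 0 concerned S100a8 from Lyve1 Folr2 to Ly6c2 Chil3 cells (2.51 with exclusive classes, -0.95 with barcodes in every class, -0.83 with the class of most core UMIs) and S100a9 from mesenchymal-like to phagocyte-like cells (-2.04 with exclusive classes, 1.18 at 10000 UMIs, 0.0546 at 3000 UMIs, 0.43 with barcodes in every class, 0.83 with a gate of 6 UMIs), and the cause was not tested. The other changes of sign came from ratios whose interval included 0, such as S100b between Schwann-like and mesenchymal-like cells (0.74 and 0.88 in place of -1.45), and from Spearman coefficients that were under 0.5 in size with exclusive classes. Ratios of Schwann-like cells at 10000 UMIs rest on under 20 cells and were not computed. Several classes hold fewer than 4 UMIs of S100b, S100a8 or S100a9, which limits the precision of their levels.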
